A study of Bos taurus with 6 samples.

Results

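Type VI collagen is a filament-forming collagen of the muscle connective tissue, and the integrins are the receptors with which cells hold on to the matrix around them. The genes described here are COL6A1, COL6A2, COL6A3 and COL6A6, which encode type VI collagen chains, and ITGA5, ITGA6, ITGA7, ITGB1, ITGB5 and ITGB8, which encode integrin subunits. These 10 genes, of the 18010 genes in the data, were chosen by name. COL6A6 is listed in the data under the provisional symbol LOC530102 and was matched by its gene identifier. RNA-Seq libraries were made from longissimus dorsi, 1 for each of 3 Shandong black and 3 Luxi animals aged 18 months. Shandong black cattle is a breed built from Japanese black, Luxi and Bohai black cattle, and the study describes its animals as offspring of cloned cattle. Luxi cattle, a yellow breed of the same region, was named by the study as the recipient in that cloning. The animals of each breed came from a different company, so that breed and origin cannot be told apart.

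The α1, α2 and α3 chains of type VI collagen fold together inside the cell, and the product is secreted and assembles into beaded microfilaments next to the basement membrane of the muscle fibre. The α6 chain, encoded by COL6A6, is one of the long chains that resemble α3. Integrins are heterodimers of an α and a β subunit. In muscle, the β1 subunit pairs with α7 to bind laminin in the basement membrane, with α6 to bind laminin mainly on endothelial and other cells, and with α5 to bind fibronectin. The β5 and β8 subunits pair with αV, β5 to bind vitronectin and β8 to bind the latent form of TGF-β.

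Each library held between 14.1 and 17.99 gigabases of aligned sequence, with the Luxi libraries deeper. Expression is given as FPKM, the fragments per kilobase of transcript relative to all fragments of the library, summed over the transcripts of a gene. Muscle fibre markers were abundant in each library, with a summed FPKM of ACTA1, CKM, TTN, DES, MYH1, MYH2 and MYH7 between 15177 and 66124. The library of Luxi replicate 1 stood apart, with the lowest muscle fibre sum and an endothelial marker sum (PECAM1, CDH5, TEK and TIE1) of 50.8, against 14.9 to 28.0 in the other 5 libraries. Its muscle fibre sum was mostly ACTA1, at 12237 FPKM. ACTA1, CKM, DES and MYH7 were lowest in this library, while TTN, MYH1 and MYH2 were within the range of the others. Adipocyte markers (ADIPOQ, PLIN1, FABP4, LEP and CIDEC) summed to between 109 and 173 in Shandong black cattle and between 2.04 and 17.3 in Luxi cattle, and 4 of the 5 were called lower in Luxi cattle by the test described next, against 1.02% of all genes tested. When each animal was left out in turn, PLIN1 was called in 6 fits of 6, CIDEC and FABP4 in 3 and ADIPOQ in 1. LEP was at 0 in Luxi replicate 1. In bulk muscle, fewer cells of a type and less RNA per cell cannot be told apart.

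A gene was called when its adjusted p, from limma on log2(FPKM + 1) with Benjamini-Hochberg adjustment over all 9781 genes tested, was below 0.05 and its log2 fold change was at least 1 in size. Of the 10 genes, 9 had a positive log2 fold change, meaning higher in Luxi cattle, against 62.5% of all genes tested, and ITGA7 had a negative one. COL6A1 and COL6A2 rose past the threshold and no other member was called, so that 2 of 10 were called in the higher direction, against 1.54% of all genes tested, and 0 of 10 in the lower direction, against 1.02%. In either direction 2.57% of all genes were called. The FPKM of the Luxi animals lay above that of each Shandong black animal, with no overlap, for 6 of the 10 (COL6A1, COL6A2, COL6A3, COL6A6, ITGA5 and ITGB8), against 20.0% of all genes tested. None of the 10 was lower without overlap, and 29.1% of all genes did not overlap in one direction or the other. The median log2 fold change was 0.84 over the 10 genes and 0.13 over all genes tested. COL6A6 and ITGB8 reached the minimum mean FPKM of 1 that the test required in Luxi cattle only, so that they had to be higher there, and their place in these counts shows nothing. Of the other 8 genes, which also reach that minimum by their mean over the 6 animals, 7 had a positive log2 fold change, 4 were higher in Luxi cattle without overlap, against 19.4% of all genes that reach it so, and the median was 0.81. The study itself listed COL6A1, COL6A2, COL6A3, COL6A6, ITGA6 and ITGB8 among its upregulated genes from these libraries, so their direction is not independent evidence. The median was 1.06 over these 6 and 0.20 over the other 4. The study also measured COL6A2 by qRT-PCR in the same animals and reported it higher in Luxi cattle.

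**Figure D1:**
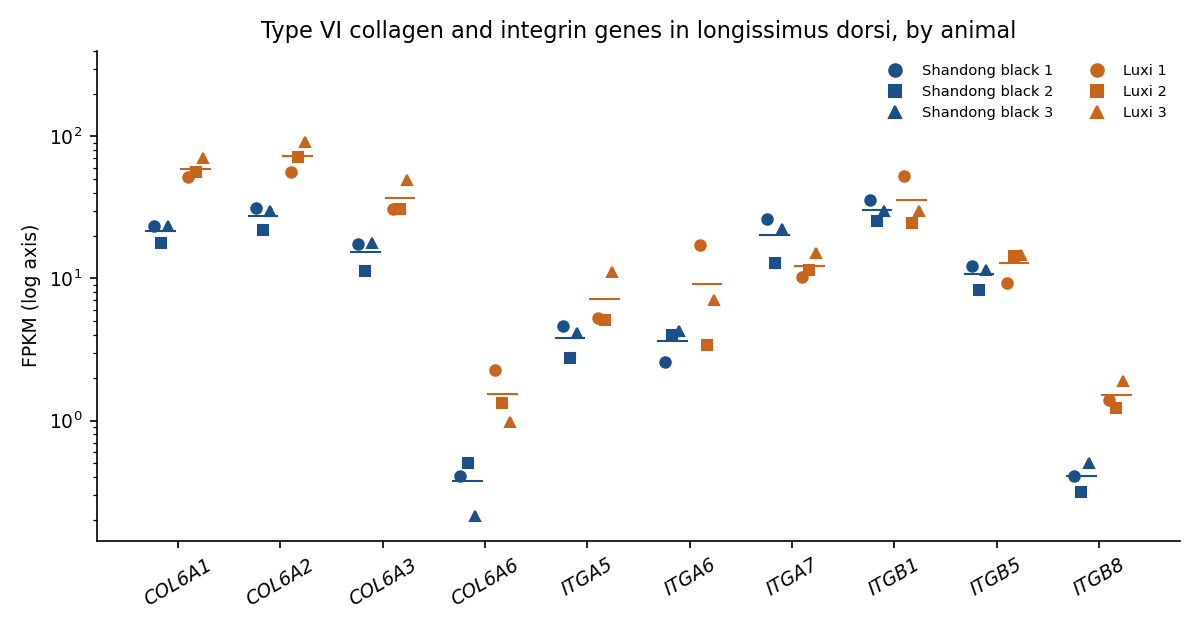
FPKM of each gene in each animal on a log axis. Blue symbols are Shandong black cattle, orange symbols are Luxi cattle, the symbol shape gives the replicate, and the short lines are the means (n = 3). COL6A1, COL6A2, COL6A3, COL6A6, ITGA5 and ITGB8 show no overlap between the breeds.

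COL6A1, which encodes the α1 chain, lies on the plus strand of chromosome 1 from 145668730 to 145687976 (ARS-UCD1.2). Its FPKM was 23.5, 17.6 and 23.5 in the 3 Shandong black animals and 51.8, 55.8 and 70.0 in the 3 Luxi animals. The lowest Luxi animal was more than 2 times the highest Shandong black animal. The means were 21.6 ± 3.41 (SD, n = 3) and 59.2 ± 9.57 (SD, n = 3), and the log2 fold change of 1.42 had an SE of 0.24 (limma adjusted p = 0.0329).

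COL6A2, which encodes the α2 chain, follows COL6A1 on the same strand after 119 kilobases, from 145807051 to 145838162. Its FPKM was 31.2, 21.9 and 29.7 in Shandong black cattle and 56.4, 71.4 and 91.3 in Luxi cattle, again without overlap. The log2 fold change was 1.36 (SE 0.27), with a limma adjusted p just inside the threshold, 0.0495. Neither call held in every fit with 1 animal left out. When each animal was left out in turn, COL6A1 and COL6A2 were both called in 1 fit of 6, the one without Luxi replicate 1, with adjusted p values of 0.0205 and 0.0226 from limma. Without any one of the other 5 animals neither gene was called. The count called over all genes also fell, from 251 with all 6 animals to between 3 and 182 in these 5 fits. It rose to 593 without Luxi replicate 1. Over all 6 fits with 1 animal left out the log2 fold change was between 1.28 and 1.50 for COL6A1 and between 1.19 and 1.53 for COL6A2.

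COL6A3, which encodes the long α3 chain, lies on the minus strand of chromosome 3 from 116781707 to 116872758. Its FPKM was 17.4, 11.3 and 17.7 in Shandong black cattle and 30.8, 30.6 and 49.5 in Luxi cattle. No Luxi animal fell into the range of the Shandong black animals, but the log2 fold change of 1.196 (SE 0.29) was not called (limma adjusted p = 0.0766). Shandong black replicate 2 was lowest and Luxi replicate 3 highest for COL6A1, COL6A2 and COL6A3 alike. The sum of the 3 genes was 72.1, 50.8 and 70.9 FPKM in Shandong black cattle and 139, 158 and 211 FPKM in Luxi cattle.

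The proportion of the chains to each other was compared within each animal, where differences in library scaling cancel. The FPKM of COL6A2 divided by that of COL6A1 was 1.32, 1.24 and 1.26 in Shandong black cattle and 1.09, 1.28 and 1.30 in Luxi cattle. This ratio overlapped between the breeds and exceeded 1 in each of the 6 animals. The log2 difference was -0.06, with p = 0.7 in an exact two-sided permutation test, and its direction turned to 0.02 without Luxi replicate 1. For COL6A3 divided by COL6A1 the ratio was 0.739, 0.639 and 0.751 in Shandong black cattle and 0.595, 0.548 and 0.707 in Luxi cattle. The log2 difference of -0.21 had an exact permutation p of 0.2. With 3 animals against 3, the smallest p this test can give is 0.1, and adjusted over the 6 ratios compared in all the values were 0.84 and 0.6.

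The higher level of the collagen genes in Luxi cattle was spread along the whole transcript. The coverage of an exon, divided by the gigabases of its library, was compared for the internal exons that all reference transcripts of a gene share. For COL6A1, all 33 such exons were higher in Luxi cattle without overlap, with a Luxi to Shandong black ratio of means from 1.78 to 10.3 and a median of 2.80. For COL6A2 this held for all 26 exons, with ratios from 1.94 to 4.47 and a median of 3.44, and for COL6A3 for 37 of 38 exons, with ratios from 1.81 to 4.27 and a median of 2.40. Exons of a gene share its reads and are not replicates, so no test was made over them.

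The coverage along COL6A1 was uneven in both breeds. It was lowest at exon 9 of this series, at 1.84, 0.952 and 0.787 reads per base and gigabase in Shandong black cattle and 16.2, 8.01 and 12.6 in Luxi cattle, and this exon had the highest ratio of the gene. The coverage of the exons before the midpoint of this series divided by that of the exons after it was 0.558, 0.759 and 0.545 in Shandong black cattle and 0.952, 0.903 and 0.806 in Luxi cattle. The 5′ part was thus less covered relative to the 3′ part in each Shandong black animal than in any Luxi animal. COL6A2 also showed this order, with 1.08, 0.893 and 0.985 against 1.25, 1.201 and 1.18, whereas for COL6A3 the breeds overlapped, with 0.701, 0.924 and 0.862 against 0.782, 0.901 and 0.742. The part of this 5′ to 3′ difference in the FPKM of COL6A1 was not tested. In the last 5 of its exons the Luxi to Shandong black ratios were between 1.78 and 2.42, without overlap.

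**Figure D2:**
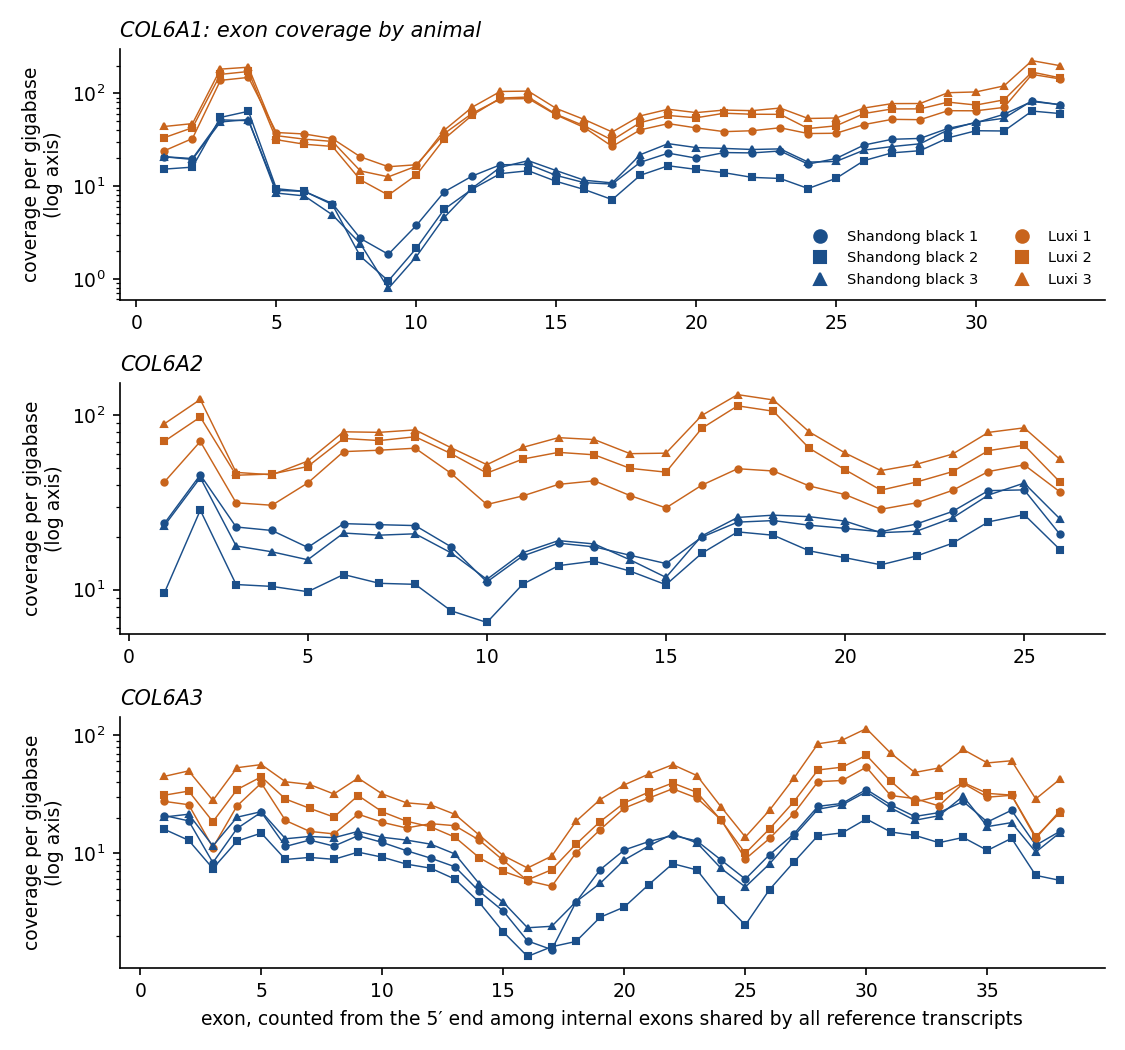
Exon coverage per gigabase of aligned sequence along COL6A1, COL6A2 and COL6A3, on a log axis, for each animal (blue, Shandong black cattle; orange, Luxi cattle; symbol shape, replicate). Exons are numbered from the 5′ end among the internal exons shared by all reference transcripts (33, 26 and 38 exons). The orange lines run above the blue lines in all 3 genes, except at 1 exon of COL6A3, and the dip at exon 9 of COL6A1 is deepest in Shandong black cattle.

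In 5 of the 6 animals, most of the COL6A3 level lay in transcripts that StringTie assembled and that are absent from the annotation. The assembled transcripts carried 14.6, 0.790 and 9.79 FPKM in Shandong black cattle and 21.9, 24.2 and 46.5 FPKM in Luxi cattle. The 6 annotated transcripts carried 2.80, 10.5 and 7.89 FPKM against 8.97, 6.44 and 2.99 FPKM. On the annotated transcripts alone, the log2 fold change was -0.13 (limma adjusted p = 0.906). Assembled transcripts that began outside the annotated gene, on its 5′ side, carried between 55.4% and 94.0% of the gene's FPKM in 5 of the 6 animals and 0% in Shandong black replicate 2. The farthest start in each of the 5 animals was 197 to 378 bases outside. The exon coverage, which sums annotated and assembled transcripts, showed the higher level in Luxi cattle for 37 of 38 exons.

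**Figure D3:**
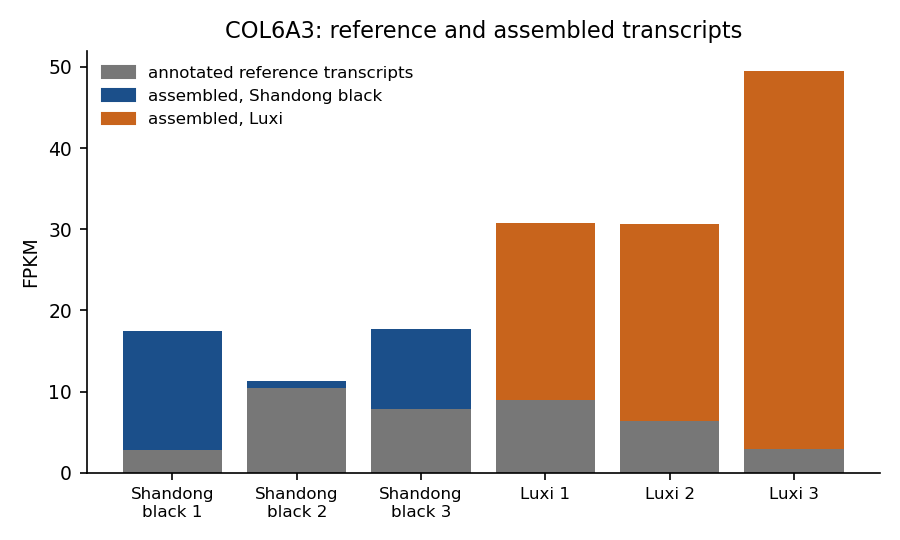
FPKM of COL6A3 in each animal, as stacked bars of the annotated reference transcripts (grey) and of the transcripts assembled by StringTie (blue, Shandong black cattle; orange, Luxi cattle). The annotated part does not separate the breeds, and the total, from 11.3 to 17.7 in Shandong black cattle and from 30.6 to 49.5 in Luxi cattle, does.

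COL6A6, on the minus strand of chromosome 1 from 151564071 to 151743963, had, with ITGB8, the lowest FPKM of the members. Its FPKM was 0.407, 0.506 and 0.213 in Shandong black cattle and 2.29, 1.33 and 0.984 in Luxi cattle. There was no overlap, and the log2 fold change of 0.85 (SE 0.23) was not called (limma adjusted p = 0.0966). It was 1.75 with a pseudocount of 0.1, again not a call. The size of this difference depends on the scale, since only short assembled fragments were listed for the 3 Shandong black animals. The annotated transcript of 37 exons was at 0 in all 3 Shandong black animals and at 2.29, 1.10 and 0.984 FPKM in the Luxi animals.

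Aligned bases spread over the full annotated length gave COL6A6 a level of 0.0822, 0.234 and 0.0640 in Shandong black cattle and 2.29, 1.23 and 0.984 in Luxi cattle, a ratio of means of 11.8. Of its 35 shared internal exons, 34 were higher in Luxi cattle without overlap, and 6 were in no listed transcript of any Shandong black animal. Reads outside the listed transcripts are not counted, so a coverage of 0 does not show that no read aligned. The Shandong black libraries were also shallower, and the part of the assembly in these values was not tested. The calculation from aligned bases was added after the data were seen, and these low levels rest on few reads. By the same calculation the ratio of means was 2.75 for COL6A1, 2.65 for COL6A2 and 2.34 for COL6A3.

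Over the 9781 genes tested, those whose profile over the 6 animals was most like that of COL6A1 were COL6A2, PLXDC1, COL5A1, C7H5orf15 and STC1, in this order. Likeness was measured as the root mean square difference of log2(FPKM + 1) after centring each gene on its mean over the 6 animals, and it was 0.09 for COL6A2 and between 0.11 and 0.14 for the other 4. All 5 were called higher in Luxi cattle, which the choice by likeness to a called gene largely fixes. COL6A3 came at rank 11, ITGB8 at rank 136 and ITGA5 at rank 440, while ITGA7 was far down, at rank 8845.

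ITGB1, which encodes the β1 subunit shared by the laminin and fibronectin receptors, was the most abundant integrin member. It lies on the plus strand of chromosome 13 from 19970664 to 20014499. Its FPKM was 35.7, 25.3 and 29.8 in Shandong black cattle and 52.6, 24.7 and 29.7 in Luxi cattle. The breeds overlapped, and the log2 fold change of 0.17 (SE 0.32) was not called (limma adjusted p = 0.790) and turned to -0.14 without Luxi replicate 1.

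ITGA7, which encodes the α7 subunit of the laminin receptor of muscle fibres, was the one member with a lower mean in Luxi cattle. It lies on the plus strand of chromosome 5 from 57548742 to 57572025. Its FPKM was 26.1, 12.8 and 22.1 in Shandong black cattle and 10.2, 11.5 and 15.0 in Luxi cattle. Shandong black replicate 2 lay among the Luxi animals, and the log2 fold change of -0.65 (SE 0.30) was not called (limma adjusted p = 0.256). On annotated transcripts alone it was called lower, at -2.17 on the log2 scale (limma adjusted p = 0.0141). The annotated share of the gene's FPKM was 68.3%, 77.2% and 62.1% in Shandong black cattle and 22.8%, 19.7% and 13.5% in Luxi cattle, without overlap between the breeds. Exon coverage gave a ratio of means between 0.51 and 0.66 over 18 shared exons, of which 1 was lower in Luxi cattle without overlap.

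The ratio of ITGA7 to ITGB1 within an animal was 0.733, 0.508 and 0.742 in Shandong black cattle and 0.193, 0.467 and 0.506 in Luxi cattle. The breeds did not overlap, by a margin that was small for Shandong black replicate 2 and Luxi replicate 3. The log2 difference was -0.86, with an exact permutation p of 0.1, the smallest this design can give, and 0.6 after adjustment over the 6 ratios. Luxi replicate 1 had the lowest ratio together with the lowest summed muscle fibre markers, which are mostly ACTA1, and the highest summed endothelial markers. Without it the log2 difference was -0.42, and the part of these markers in the ratio was not tested.

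Both genes have optional exons that are known to be spliced differently between tissues, and these were examined by their coverage relative to the adjoining shared exons, as a description chosen after transcript values had been seen. In ITGA7, the 113-base exon near the 3′ end (chromosome 5, 57570291 to 57570403) had 48.5%, 34.2% and 65.4% of the adjoining coverage in Shandong black cattle and 73.8%, 156% and 150% in Luxi cattle. It was relatively more covered in each Luxi animal than in any Shandong black animal. The exon is in 1 annotated transcript, by its length the one of 27 exons. That transcript was not higher in Luxi cattle, at 0.464, 0.319 and 0.716 FPKM against 1.96, 0.473 and 2.06 FPKM in Shandong black cattle. The annotated ITGA7 transcript with the highest level in Shandong black cattle was at 13.2, 8.66 and 9.75 FPKM there against 1.11, 1.31 and 0.00127 FPKM in Luxi cattle. Most of the ITGA7 level in Luxi cattle lay in assembled transcripts, and their part in the exon coverage was not tested.

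A 132-base exon of ITGA7 (57555819 to 57555950) was covered at 11.1%, 10.2% and 8.83% in Shandong black cattle and at 59.6%, 7.66% and 14.4% in Luxi cattle. The neighbouring 120-base exon (57556175 to 57556294) was covered at 214%, 270% and 182% in Shandong black cattle and at 133%, 190% and 158% in Luxi cattle. Luxi replicate 1 had the highest value for the 132-base exon and the lowest for the 120-base exon. In ITGB1, the 81-base exon (chromosome 13, 20008784 to 20008864) had 33.4%, 33.4% and 29.7% in Shandong black cattle and 8.86%, 34.7% and 20.9% in Luxi cattle. Luxi replicate 1 was again at the end of the range, and the breeds overlapped for the 132-base, 120-base and 81-base exons.

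COL6A3 also has optional exons, here set against the mean of 2 adjoining shared exons. Its 600-base exon (chromosome 3, 116840349 to 116840948) had 18.1%, 20.8% and 26.2% of the adjoining coverage in Shandong black cattle and 16.0%, 3.37% and 1.18% in Luxi cattle. The breeds did not overlap, although Luxi replicate 1 was close to Shandong black replicate 1. The 585-base exon was covered at 65.5% to 88.0% in Shandong black cattle and at 86.2% to 88.9% in Luxi cattle, and the 603-base and 618-base exons stayed at or below 17.2% in each animal.

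**Figure D4:**
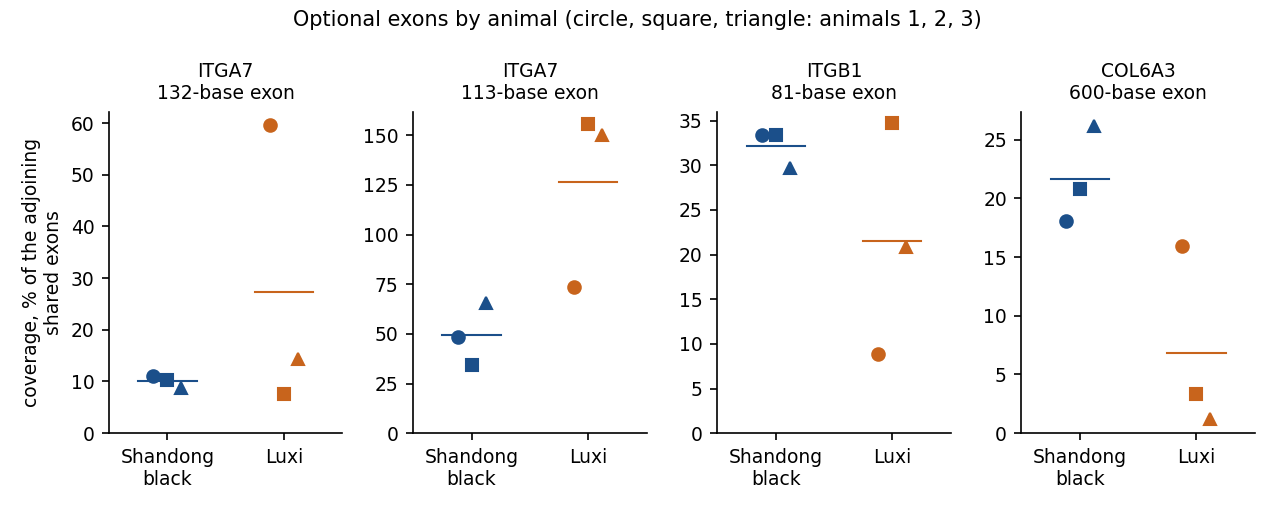
Coverage of 4 optional exons in each animal, as a percentage of the coverage of 1 (ITGA7 and ITGB1) or 2 (COL6A3) adjoining shared exons. Blue symbols are Shandong black cattle and orange symbols are Luxi cattle. Circle, square and triangle are replicates 1, 2 and 3, and lines are means (n = 3). The 113-base exon of ITGA7 is higher and the 600-base exon of COL6A3 lower in Luxi cattle without overlap, and Luxi replicate 1 stands apart for the 132-base exon of ITGA7.

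The other laminin-binding subunit, α6, is encoded by ITGA6 on the minus strand of chromosome 2 from 24091589 to 24179355. Its FPKM was 2.60, 4.0 and 4.30 in Shandong black cattle and 17.1, 3.42 and 7.0 in Luxi cattle. One animal, Luxi replicate 1, set the difference, and Luxi replicate 2 lay below 2 of the Shandong black animals. The log2 fold change was 0.92 (SE 0.48, limma adjusted p = 0.308), and it was 0.38 without Luxi replicate 1 and 1.40 without Luxi replicate 2. Of the 4 endothelial markers, PECAM1, CDH5 and TEK were also highest in Luxi replicate 1, at 29.0, 14.8 and 5.74 FPKM, while TIE1, at 1.26 FPKM, was within the range of the Shandong black animals. PECAM1 and CDH5 were higher in the Luxi animals than in any Shandong black animal, TEK and TIE1 overlapped, and TIE1 had a lower mean in Luxi cattle (log2 fold change -0.22). None of the 4 was called, and the part of endothelial RNA in the level of ITGA6 was not tested. Relative to ITGB1, the ratio of ITGA6 was 0.0730, 0.158 and 0.144 in Shandong black cattle and 0.326, 0.139 and 0.236 in Luxi cattle (exact permutation p = 0.3).

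ITGA5, which encodes the α5 subunit of the fibronectin receptor, lies on the plus strand of chromosome 5 from 25662353 to 25683394. Its FPKM was 4.64, 2.74 and 4.11 in Shandong black cattle and 5.24, 5.09 and 11.1 in Luxi cattle. There was no overlap between the breeds, but only Luxi replicate 3 stood well above the rest. The log2 fold change of 0.70 (SE 0.31, limma adjusted p = 0.243) was not called and was 0.37 without Luxi replicate 3. Over 28 shared exons, 4 were higher in Luxi cattle without overlap. The ratio of ITGA5 to ITGB1 ranged from 0.109 to 0.138 in Shandong black cattle and from 0.0997 to 0.375 in Luxi cattle (exact permutation p = 0.4).

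ITGB8, which encodes the β8 subunit, lies on the plus strand of chromosome 4 from 29024090 to 29120852. Its FPKM was 0.407, 0.313 and 0.499 in Shandong black cattle and 1.40, 1.22 and 1.90 in Luxi cattle. The lowest Luxi animal was at more than 2 times the highest Shandong black animal, at a low level in both breeds. The log2 fold change of 0.83 (SE 0.18) is small for a ratio of means of 3.71 because 1 was added to each low FPKM before taking the logarithm. It was below the size required for a call and had a limma adjusted p of 0.0588. With a pseudocount of 0.1 it was 1.66 and with TPM 1.16, and neither was called. From aligned bases over the annotated length, as for COL6A6, it was 0.54, a value with no test. There too 1 was added to each low level, and the ratio of means by that calculation was 4.22. Of its 10 shared exons, 8 were higher in Luxi cattle without overlap.

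ITGB5, which encodes the β5 subunit, lies on the minus strand of chromosome 1 from 69196890 to 69312146. Its FPKM was 12.2, 8.36 and 11.5 in Shandong black cattle and 9.26, 14.5 and 14.6 in Luxi cattle. Luxi replicate 1 lay within the Shandong black range and the other Luxi animals above it. The log2 fold change was 0.23 (SE 0.25, limma adjusted p = 0.627). Its ratio to ITGB1 was 0.343, 0.331 and 0.385 in Shandong black cattle and 0.176, 0.587 and 0.490 in Luxi cattle (exact permutation p = 1).

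**Figure D5:**
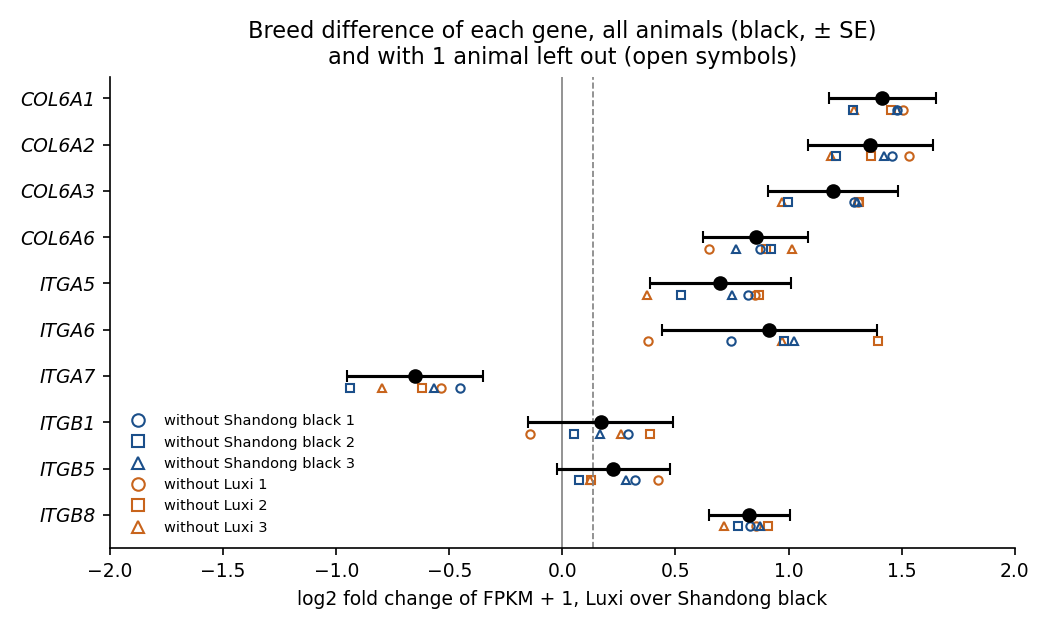
Log2 fold change of FPKM + 1, Luxi over Shandong black cattle, with all 6 animals (black points, bars ± SE) and with one animal left out (open symbols; blue, a Shandong black animal left out; orange, a Luxi animal). The solid line is at 0 and the dashed line at the median of all genes tested, 0.13. ITGB1 turns to -0.14, and ITGA6 falls from 0.92 to 0.38, when Luxi replicate 1 is left out.

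The 10 genes differed widely in level, and FPKM, being per length, lets their levels be set in an approximate order. By the mean over the 6 animals the order was COL6A2 (50.3), COL6A1 (40.4), ITGB1 (33.0), COL6A3 (26.2), ITGA7 (16.3), ITGB5 (11.7), ITGA6 (6.41), ITGA5 (5.49), ITGB8 (0.957) and COL6A6 (0.954). Of neighbours in this order, COL6A2 was above COL6A1 and ITGA5 above ITGB8 in each of the 6 animals. The other neighbours changed places between animals. ITGB8 and COL6A6 were nearly equal, and short assembled fragments affect the FPKM of COL6A6. From aligned bases over the annotated length, the mean of COL6A6 was 0.127 in Shandong black and 1.50 in Luxi cattle. That of ITGB8 was 0.162 and 0.686. By FPKM, ITGB1 was the highest of the 10 in each Shandong black animal and COL6A2 in each Luxi animal. In Shandong black replicate 3 the 2 genes were nearly equal, at 29.82 and 29.71 FPKM. From aligned bases over the annotated length, COL6A2 was above ITGB1 in each Shandong black animal, at 30.3, 21.19 and 28.8 against 29.5, 21.18 and 23.7. This difference in order between the breeds thus depends on the measure. By FPKM, COL6A1 was above ITGB1 in 2 of 6 animals, which were Luxi replicates 2 and 3. Summed FPKM of the 6 integrin members was 81.7, 53.5 and 72.3 in Shandong black cattle and 95.8, 60.4 and 79.4 in Luxi cattle, so that integrin sums overlapped between the breeds while those of COL6A1, COL6A2 and COL6A3 did not.

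Among the other integrin subunits, 15 of the 20 listed were found, 7 were tested and none was called. Their median log2 fold change was 0.15, and for none of the 7 were the breeds without overlap. ITGAV, whose αV subunit is the partner of β5 and β8, had an FPKM of 5.13, 3.31 and 2.69 in Shandong black cattle and 3.71, 3.75 and 4.90 in Luxi cattle (log2 fold change 0.15). The 2 with the largest log2 fold change were ITGA1 (0.42), which encodes a collagen-binding subunit, and ITGB6 (0.21), another partner of αV, and the 2 with the smallest were ITGA4 and ITGB4 (-0.23 each). ITGA1 reached 14.1 FPKM in Luxi replicate 1 and was between 3.45 and 4.77 in the other 5 animals, so that the same animal was highest for ITGA1, ITGA6 and ITGB1.

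Of the other type VI collagen chains and their cell surface receptors, COL6A5 was not found under its name in the data. CSPG4, ANTXR1 and ANTXR2 had log2 fold changes of -0.23, 0.12 and 0.00, with none called. CSPG4, a membrane proteoglycan, and the anthrax toxin receptors encoded by ANTXR1 and ANTXR2 are known to bind type VI collagen. Of the glycoprotein ligands of the integrins, 11 of 13 were tested and none was called, with a median log2 fold change of 0.22. FN1, LAMA4 and LAMB2, 3 of the 11, were higher in Luxi cattle without overlap, against 20.0% of all genes tested. The largest log2 fold changes were those of LAMB2, a laminin β chain (1.19, limma adjusted p = 0.0615), and LAMA5, a laminin α chain (0.67). The smallest were those of LTBP1, which binds latent TGF-β (-0.57), and TNC, which encodes tenascin C (-0.26).

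Of the cytoplasmic linkers and kinases of integrin adhesions, 21 of 25 were tested, 1 was called and the median log2 fold change was 0.47. PTK2 was not found under its name in the data. PXN, which encodes the adaptor paxillin, had an FPKM of 4.69, 4.40 and 5.14 in Shandong black cattle and 8.81, 11.2 and 14.8 in Luxi cattle. It rose without overlap, with a log2 fold change of 1.11 (SE 0.22, limma adjusted p = 0.0466), and its call was kept in 1 fit of 6 when each animal was left out in turn. Another 5 of these genes, LIMS2, TNS2, TNS1, BCAR1 and VCL, were higher in Luxi cattle without overlap, and TLN1 and FLNC were lower without overlap, but none of the 7 was called. With PXN, 6 of 21 were thus higher without overlap, against 20.0% of all genes tested, and 8 of 21 did not overlap in one direction or the other, against 29.1%.

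Fibroblasts are a known source of type VI collagen in muscle, and their markers were set beside the collagen genes. The FPKM of PDGFRA, DCN, LUM, THY1 and PDGFRB summed to 106, 75.1 and 91.7 in Shandong black cattle and to 173, 145 and 101 in Luxi cattle. None of these 5 genes was called, all 5 had a positive log2 fold change, with a median of 0.38, and PDGFRA and THY1 did not overlap between the breeds. Luxi replicate 3, which had the highest COL6A1, COL6A2 and COL6A3, had the lowest of these sums among the Luxi animals. That sum is mostly DCN, at 71.0 FPKM in Luxi replicate 3 against 133 and 117 in Luxi replicates 1 and 2. The single markers differed in this, since among the Luxi animals PDGFRB was also lowest in replicate 3, but LUM was highest there. PDGFRA and THY1 lay between the values of the other Luxi animals. The adipocyte markers, which were lower in Luxi cattle for 5 of 5 genes without overlap, moved opposite to the collagen genes. Of all genes tested, 29.1% did not overlap in one direction or the other. The study listed ADIPOQ, PLIN1, FABP4 and LEP among its downregulated genes from these libraries, so their direction is not independent evidence. The macrophage and leukocyte markers summed to 7.88 to 10.6 in Shandong black cattle and 6.07 to 10.9 in Luxi cattle, and the satellite cell markers MYF5 and CALCR to 0.844 to 1.32 and 1.86 to 3.35. The part of the cell composition in the level of the collagen genes was not tested.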

How the data were processed

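One library per animal was made from total RNA of longissimus dorsi with an Illumina TruSeq RNA kit. Fastp trimming, alignment to ARS-UCD1.2 by HISAT and one StringTie run per library, guided by the NCBI annotation, were done by the authors. The file headers give StringTie 1.3.3b with a setting for stranded reads, although the named kit, per the labels, was not stated to keep strand. The deposited values are the coverage, FPKM and TPM of each transcript, and a transcript absent from an animal was counted as 0. The authors' own test, Cuffdiff, needs alignments and was not run.

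From the deposited FPKM, gene values were computed by adding to the reference transcripts those assembled ones on the gene's strand that had 50% or more of their bases on its exons. Assembled transcripts assigned to no gene took up 21.6 to 29.8% of a library's FPKM. Deposited coverage divided by FPKM gave the aligned gigabases. Exon coverage was summed over transcripts. Read counts were not used, so no counting interval is given and the limit set by depth was not measured. The number of animals also limits precision. That the 3 animals of a breed are separate animals is taken from the study.

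Genes whose mean FPKM reached 1 in either breed were tested with limma 3.58.1 in R 4.3.3 (lmFit and eBayes with trend on log2(FPKM + 1), all 6 libraries, no covariate), and the procedure was tested on simulated data. Ratios of subunits were compared with exact two-sided permutation tests in scipy 1.17.1. The genes and lists were chosen with earlier results of these data known. Named were all 10 genes, the partners ITGAV and COL6A5, each called gene of a pathway list or otherwise the 2 largest and 2 smallest log2 fold changes in it, and the 5 genes most like COL6A1. FN1, LAMA4, LIMS2, TNS2, TNS1, BCAR1, VCL, TLN1 and FLNC were named after their values were seen. The alternatives were a pseudocount of 0.1, no filter, TPM, quantile normalization, median-of-ratios size factors, an overall mean FPKM minimum of 5, a replicate block, eBayes with no trend, reference transcripts only and leaving out each animal. No sequences are shown.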

Additional observations from a re-analysis of the deposited data

Results flagged for a closer look

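In 8 of the 10 genes, StringTie also assembled transcripts on the strand opposite to their exons, which the gene values leave out. ITGA6 and ITGB8 had none. Their FPKM was between 0.454 and 1.33 for COL6A1, between 0.609 and 2.13 for COL6A2, between 0.513 and 1.71 for COL6A3 and between 0.346 and 0.995 for ITGB1, in each of the 6 animals. For COL6A6 the opposite strand reached 0.231 FPKM and, in 1 animal, 85.2% of the gene's own level. For ITGA5, ITGA7 and ITGB5 it reached 16.9%, 3.16% and 8.21%. The source of these reads was not tested.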

How the results depend on the processing

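The 2 calls of the collagen genes were 1 with a pseudocount of 0.1 (COL6A1), 1 with size factors (COL6A1) and 0 without a filter, and ranged from 0 to 2 when one animal was left out, 2 without Luxi replicate 1 and 0 in the other 5 fits. With reference transcripts only there were also 2 calls, COL6A1 higher and ITGA7 lower. The median log2 fold change of the 10 genes was 1.15 with a pseudocount of 0.1 and from 0.75 to 0.90 when one animal was left out. COL6A3 turned to -0.13 with reference transcripts only, and ITGB1, which ranged from -0.14 to 0.39 when one animal was left out, to -0.14 without Luxi replicate 1. The log2 difference in the ratio of COL6A2 to COL6A1 ranged from -0.11 to 0.019 when one animal was left out, and that of ITGB5 to ITGB1 from -0.26 to 0.61. The cause was not tested.

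Over all genes, 251 were called, 60.2% of them higher in Luxi cattle. The count was 63 without a filter, 134 at a mean FPKM of at least 5, 163 with reference transcripts only and 3 to 593 when one animal was left out. The share higher was 44.8% with size factors and 43.1% with quantile normalization, which moved the median of all genes from 0.13 to 0.00. Under both scalings 9 of the 10 genes still had a positive log2 fold change.

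The labels do not say whether the replicate numbers mark anything besides the animals. Deviations from the breed means correlated at 0.0745 to 0.0869 between same-numbered animals of the breeds and at -0.107 to 0.00834 between the others. All of these are weak. Centring on the mean of 3 animals also ties them to each other, so no pairing is read from them. With the replicate block, 0 of the 10 genes and 135 of all genes were called. Read counts were not used, so what depth limits was not measured. COL6A6 and ITGB8 lie near 1 FPKM or below.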
